A study of Mus musculus with 9 samples.

Results

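The genes described here are the colony stimulating factors and their receptors, with the ligand and the receptor of the related receptor kinases KIT and FLT3. They were chosen by name, as the table entries called Csf1, Csf2, Csf3, Csf1r, Csf2ra, Csf2rb, Csf2rb2, Csf3r, Kitl and Flt3. All 10 names were found once each among 54449 genes. RNA was sequenced from sorted lung cells of C57BL/6 mice, which the labels call eosinophils. The naive group (n = 3 libraries) came from mice whose tail vein received saline alone, in 200 µl. The other mice received PyMT tumour cells by that route, and their sorted cells are labelled by surface Siglec-F as high (n = 3, titled iEOS) or int, for intermediate (n = 3, titled rEOS). Since a library holds RNA of 3 to 4 mice, n is a number of pools, and the p-values measure the spread between them.

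Colony stimulating factors are secreted proteins that keep myeloid cells alive and drive their growth and maturation. CSF1 acts through the receptor kinase CSF1R on monocytes and macrophages. GM-CSF, the product of Csf2, acts through the alpha chain CSF2RA and the shared beta chain CSF2RB, which also serves interleukin-5, the main survival factor of eosinophils. G-CSF, the product of Csf3, acts through CSF3R on neutrophils, while stem cell factor, the product of Kitl, acts through KIT and is also needed by pigment cells.

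The deposited value of a gene is its read count divided by a size factor for the library, called a normalized count here. The libraries held 2205949 to 5529406 reads in the naive group, 4941900 to 7171066 in the Siglec-F high group and 7517513 to 12495639 in the Siglec-F int group. Defining eosinophil markers were scarce: the summed level of 12 such markers ran from 268 to 742 in the naive group, 524 to 1156 in the high group and 190 to 421 in the int group, and Ccr3, Prg3, Adgre4 and Cebpe had no read in any naive library. The groups are therefore called by their labels only. A list of 10 pigment cell markers summed to between 65154 and 73429 in the naive libraries and to between 212 and 1096 in the others. In Siglec-F high library 1, the 2728 tested genes of lowest transcript GC content deviated by a median of 0.80 (log2) from the other high libraries, and the 2728 of highest GC content by -1.62. For each naive or int library, set against the rest of its group, these medians lay between -0.21 and 0.41. Siglec-F int library 2 held 3.17 times the level of the other int libraries, as the median over 14 monocyte and macrophage markers.

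Promoter sequences are shown for a pair of ligands and a pair of receptor chains that were higher in the Siglec-F int group than in the naive group, as the members called there for which a window was at hand and could be shown. Each covers 250 bases before to 50 after the start site and is printed along its gene's strand, from RefSeq on GRCm38.p6. Capitals mark matches, on either strand, to the NF-kB pattern (GGG and TTCC with any 3 bases between them) or the PU.1 pattern GAGGAA, and no matches overlapped.
Csf1 (chr3:107760420-107760719, minus strand): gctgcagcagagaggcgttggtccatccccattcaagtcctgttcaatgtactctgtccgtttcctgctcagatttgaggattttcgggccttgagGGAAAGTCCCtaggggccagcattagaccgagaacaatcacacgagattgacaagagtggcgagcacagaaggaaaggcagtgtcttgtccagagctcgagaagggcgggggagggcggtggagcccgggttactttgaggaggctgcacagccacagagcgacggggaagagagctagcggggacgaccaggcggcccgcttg
Kitl (chr10:100015571-100015870, plus strand): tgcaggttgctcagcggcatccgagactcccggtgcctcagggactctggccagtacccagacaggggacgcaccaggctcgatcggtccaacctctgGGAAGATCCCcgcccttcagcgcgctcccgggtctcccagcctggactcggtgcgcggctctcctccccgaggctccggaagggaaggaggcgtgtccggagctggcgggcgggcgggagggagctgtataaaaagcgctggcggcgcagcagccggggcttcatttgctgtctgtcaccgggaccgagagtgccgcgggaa
Csf2ra (chr19:61228369-61228668, minus strand): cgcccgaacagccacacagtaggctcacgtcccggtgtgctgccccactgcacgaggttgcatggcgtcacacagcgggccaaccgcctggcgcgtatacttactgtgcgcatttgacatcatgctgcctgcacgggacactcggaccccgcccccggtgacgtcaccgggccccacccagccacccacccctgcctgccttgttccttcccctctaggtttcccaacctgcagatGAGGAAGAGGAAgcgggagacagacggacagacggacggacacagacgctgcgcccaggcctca
Csf2rb2 (chr15:78305672-78305971, minus strand): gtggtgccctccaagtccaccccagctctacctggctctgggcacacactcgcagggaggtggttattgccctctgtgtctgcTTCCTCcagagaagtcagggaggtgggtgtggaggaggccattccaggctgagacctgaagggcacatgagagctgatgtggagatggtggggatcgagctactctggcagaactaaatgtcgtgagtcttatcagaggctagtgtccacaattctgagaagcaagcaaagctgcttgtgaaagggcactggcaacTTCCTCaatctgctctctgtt
Both ligand promoters held 1 match to the NF-kB pattern, starting 154 bases before the start site in Csf1 and 152 bases before it in Kitl. This pattern occurred in 5.56% of all 32851 promoter windows of the same length. The receptor promoters of Csf2ra and Csf2rb2 each held 2 matches to the PU.1 pattern. At least 1 match to it occurred in 28.3% of all windows, and the share with 2 was not counted. In Csf2ra the pair lay side by side, 14 and 8 bases before the start site. The windows were also searched for the AP-1 pattern TGANTCA (7.81% of all windows) and the C/EBP pattern TTGCNNAA (10.8%), which none of these 4 windows held. Of the remaining members whose window was searched, Csf3r, which was not called, held 1 match to the NF-kB pattern (129 bases before the start) and 1 to the PU.1 pattern (86 bases before it). Csf2 held 1 match to the C/EBP pattern and none to the others, and Flt3 held no match. The RefSeq start of Csf2 lies 232 bases upstream of the GENCODE start, so its window ends before the GENCODE start. Bases next to the GENCODE start of Csf2 were not searched, and the lack of other matches says nothing about them. The RefSeq start of Kitl lies 191 bases inside the GENCODE gene, and that of Csf2ra differs from GENCODE by 11 bases.

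Of the 4 ligands, Csf1 and Kitl were higher in both groups from tumour-injected mice than in the naive group, Csf2 had reads only in the groups from injected mice, and Csf3 was not called in either comparison. Among the receptors, Csf1r and Csf2ra were higher in both groups, and the beta chains Csf2rb and Csf2rb2 were called higher in the Siglec-F int group. Csf3r and Flt3 were not called. Csf2 passed the filter, a mean of at least 5 over the 9 libraries, only through the groups where it had reads, so it had to differ and is left out of the counts against naive. Of the other 9 genes, 4 were called higher and 0 lower between Siglec-F high and naive, where limma called 14.7% of 13642 tested genes higher and 16.6% lower. Between Siglec-F int and naive, 6 of the 9 were called higher and 0 lower, against 12.0% and 10.3% of tested genes. The median log2 fold change of the 9 genes was 1.25 and 2.22, beside -0.11 and -0.02 over all tested genes. Both comparisons share the naive libraries. Between the Siglec-F high and int groups limma called 0 of the 10 genes and 0.00% of all tested genes. There 591 genes (4.33%) had an unadjusted p under 0.05, edgeR called 0 and DESeq2 called 6 (0.0440%). All 10 genes passed the filter, and Csf3 stood just above it, with a mean of 5.22.

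**Figure D1:**
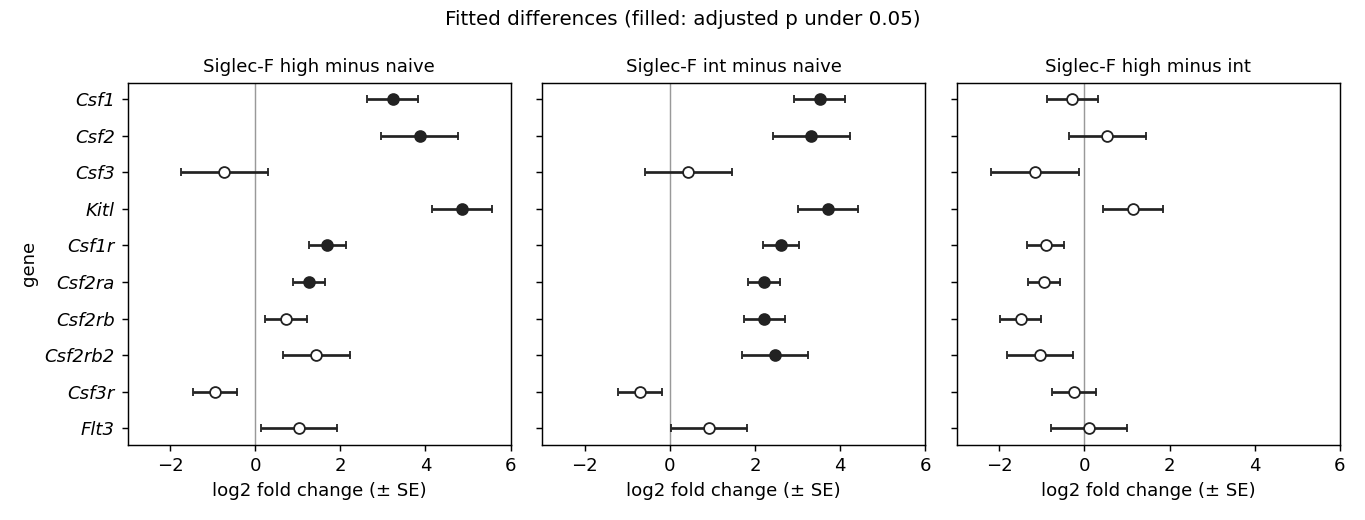
Fitted log2 fold changes (horizontal axis, on the log2(normalized count + 1) scale) of the 10 genes in 3 comparisons, with bars for the SE and filled points for adjusted p under 0.05. Filled points number 5, 7 and 0 from left to right, Csf2 included, which had to differ from naive, and all of them lie to the right of 0.

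Csf1 encodes the macrophage growth factor (ENSMUSG00000014599.10; chromosome 3, 107741048 to 107760469, GRCm38). Its normalized counts were 16.1, 39.1 and 66.0 in naive libraries 1, 2 and 3, 151, 496 and 499.8 in the Siglec-F high libraries, and 527, 257 and 506 in the Siglec-F int libraries. Every library from injected mice stood above every naive library, a separation upward that 20.2% of tested genes showed for the high group and 23.3% for the int group. The log2 fold change was 3.23 ± 0.60 (SE; limma adjusted p = 0.00397) for high and 3.52 ± 0.60 (adjusted p = 0.00318) for int against naive. In each injected group the library that stands apart was the lowest, at 0.304 times the mean of the other high libraries and 0.498 times that of the other int libraries. In bulk RNA of sorted cells, fewer cells of a type and less RNA per cell cannot be told apart.

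Kitl, whose product exists as a membrane-bound and a shed form (ENSMUSG00000019966.18; chromosome 10, 100015630 to 100100416), was scarce in the naive group. The naive libraries held 4.59, 33.9 and 7.52 normalized counts, from 4, 13 and 9 reads. The Siglec-F high libraries held 495, 217 and 373, and the Siglec-F int libraries held 230.3, 74.6 and 216. The groups did not overlap in either comparison with naive. The log2 fold change was 4.86 ± 0.70 (adjusted p = 0.00117) in high and 3.72 ± 0.70 (adjusted p = 0.00505) in int. Without naive library 2, which held the most Kitl of that group, it was 5.63 and 4.50. An alternative chosen after seeing the data, which takes out how values run with GC and transcript length in each library, lowered these to 3.35 (adjusted p = 0.00366) and 2.61 (adjusted p = 0.0142). The Kitl transcript had a GC content of 39.3%, with only 5.45% of tested genes lower. The pigment cell markers, 10 of 10, were called lower in both comparisons, with median log2 fold changes of -7.55 and -7.10. The naive libraries thus differ from the others in these transcripts too, and the part of this in the values against naive, those of Kitl, Kit and the rest of the family included, was not tested.

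Markers of fibroblasts and smooth muscle, cells known to make both Csf1 and Kitl, were called higher in part, 7 of 12 in high and 5 of 12 in int, with 0 lower. Over all tested genes 14.7% and 12.0% were called higher. The 12 genes summed to between 7125 and 8778 in the naive libraries, between 26000.1 and 38412 in the high libraries and between 11026 and 27092 in the int libraries. None had 0 reads in a group. The smooth muscle markers Tagln, Des and Myh11, chosen after their values were seen, were not called, at -0.66, -0.78 and -0.61 (log2) in int and -0.01, -1.04 and -1.37 in high, and the int libraries lay wholly under the naive ones for Tagln and Des. Acta2, another smooth muscle marker of the list, went the other way in high. It held 1053, 1175 and 1246 normalized counts in the naive libraries and 3226, 2189.5 and 2258 in the high libraries. The int libraries held 1994, 1177 and 1651, overlapping the naive ones. The endothelial list, of another source of stem cell factor, had 1 of 9 members called in each comparison, and that one was lower. Over all tested genes 16.6% were called lower in high and 10.3% in int. In int library 2 the fibroblast and smooth muscle markers stood at a median of 0.562 times the other int libraries, beside 0.334 times for Kitl and 0.498 times for Csf1. In high library 1 the markers stood at 1.39 times the other high libraries, Kitl at 1.68 times and Csf1, in the opposite direction, at 0.304 times. This is the library whose values ran with GC content. The Csf1 transcript had a GC content of 54.4%, with 76.3% of tested genes lower, beside 39.3% for Kitl. The part of GC content in these ratios was not tested. Nor was the part of fibroblasts, smooth muscle and endothelial cells in the levels of Csf1 and Kitl.

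Csf2 (ENSMUSG00000018916.5; chromosome 11, 54247271 to 54249667) had no read in any naive library. It stood at 50.5, 4.77 and 9.38 normalized counts in the Siglec-F high libraries, from 46, 8 and 11 reads. In the Siglec-F int libraries it stood at 10.2, 7.58 and 9.49, from 19, 18 and 30 reads. Against a floor of 3 reads over the naive group, its pooled level as observed was 14.1-fold higher in high and 7.41-fold higher in int. Without high library 1, which held most of its reads in that group, the first ratio was 5.45-fold. No p is given for these comparisons, since the gene was tested only through the groups where it had reads. Through the floor, these ratios allow for counting error in the naive group only. They do not cover counting error in the injected groups or the spread between libraries. The gene Gm12223 lies on the opposite strand, and whether the counts used strand is not given in the sources used here.

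Csf3 (ENSMUSG00000038067.2; chromosome 11, 98701263 to 98703629) was close to the limit of detection. Its values were 1.15, 7.82 and 6.68 in the naive libraries, 0, 2.39 and 8.53 in the high libraries and 6.98, 2.95 and 10.4 in the int libraries. These rest on 12, 14 and 53 reads per group. The 3 groups overlapped throughout, with log2 fold changes of -0.72 ± 1.03 for high (adjusted p = 0.603) and 0.44 ± 1.03 for int (adjusted p = 0.785) against naive. A difference was not detectable at this depth, and the 95% intervals ran from -2.99 to 1.54 and from -1.83 to 2.70.

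**Figure D2:**
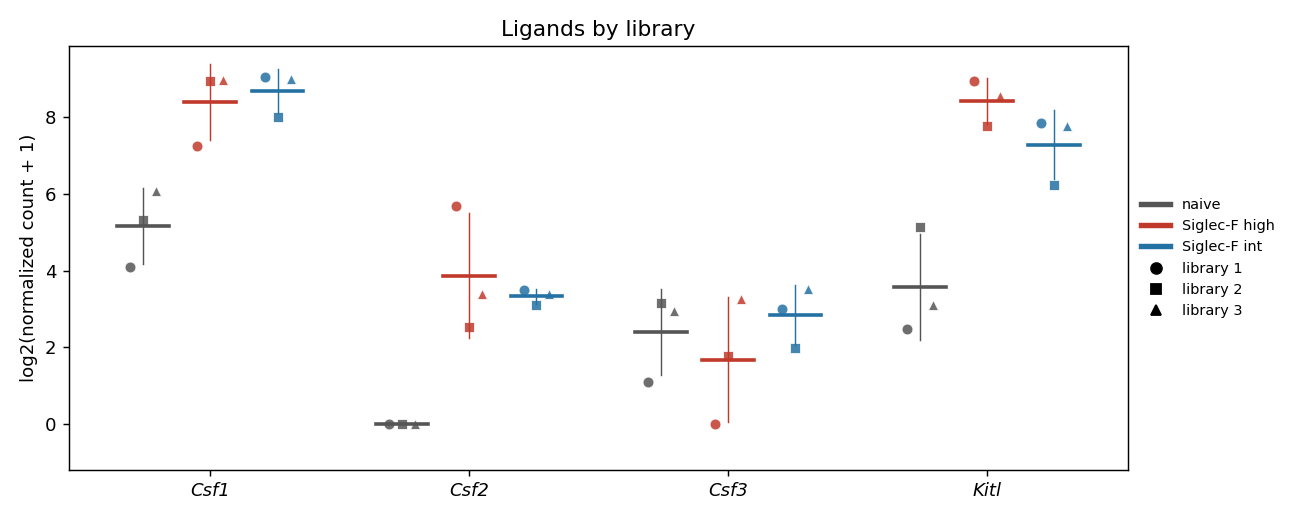
Level of the 4 ligands in each library on a log2(normalized count + 1) scale (vertical axis), by group, with a horizontal bar at the mean and a vertical bar for the SD of the log2 values (n = 3). Naive libraries lie under all others for Csf1, Csf2 and Kitl, and the groups overlap for Csf3.

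Csf1r, the receptor of CSF1 and a gene characteristic of monocytes and macrophages (ENSMUSG00000024621.15; chromosome 18, 61100598 to 61132149), stood at 169, 326 and 209 normalized counts in the naive libraries. The Siglec-F high libraries held 703, 780.3 and 716 and the Siglec-F int libraries 867, 2842 and 1067. The high libraries lay close together, while int library 2 stood far above the rest. Against naive the log2 fold change was 1.70 ± 0.43 in high (adjusted p = 0.0153) and 2.61 ± 0.43 in int (adjusted p = 0.00274). The call in high was lost without naive library 1 (adjusted p = 0.0571). Hmgxb3 lies on the opposite strand and overlaps Csf1r. Without strand, reads in the stretch that the pair shares cannot be told apart, and the length of that stretch was not measured.

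Csf2ra, the alpha chain that gives the GM-CSF receptor its specificity (ENSMUSG00000059326.6; chromosome 19, 61223957 to 61228429), held 291, 274 and 201.3 normalized counts in the naive libraries. It held 942, 523 and 444 in the high libraries and 1123, 1740.0 and 816 in the int libraries. No library from injected mice reached down to the naive level. The log2 fold change was 2.21 ± 0.38 in int (adjusted p = 0.00307), called under every alternative run. In high it was 1.25 ± 0.38 (adjusted p = 0.0288, range over its alternatives 0.00399 to 0.0938), and this call was lost without naive library 1, 2 or 3, without high library 1, with no filter, with no variance trend and in a fit of the 2 groups alone. With the GC and length trend removed the value in high was 2.49 (adjusted p = 0.0112). The Csf2ra transcript had a GC content of 57.8%, above 90.8% of tested genes.

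Csf2rb encodes the beta chain shared by GM-CSF, interleukin-3 and interleukin-5 (ENSMUSG00000071713.6; chromosome 15, 78325752 to 78353847). Its levels were 75.7, 99.0 and 66.0 in the naive libraries, 68.0, 186 and 177 in the high libraries and 254, 651 and 308 in the int libraries. The int libraries all stood above the naive and the high libraries, and high library 1 stood within the naive range. The log2 fold change against naive was 2.22 ± 0.48 in int (adjusted p = 0.00972, called under every alternative run). In high it was 0.72 ± 0.48 (adjusted p = 0.266), and 1.19 without high library 1 (adjusted p = 0.0486).

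Csf2rb2, the mouse beta chain that serves interleukin-3 alone (ENSMUSG00000071714.7; chromosome 15, 78282507 to 78305721), is the neighbour and close copy of Csf2rb, with no annotated gene between them. It held 3.44, 46.9 and 11.7 normalized counts in the naive libraries, 37.3, 39.4 and 33.3 in the high libraries and 54.8, 136 and 59.5 in the int libraries. The high libraries lay within the wide naive range, which rested on 3, 18 and 14 reads, and the int libraries lay above both. In int the log2 fold change was 2.47 ± 0.78 (adjusted p = 0.0451, range over its alternatives 0.0104 to 0.151). The call was lost without naive library 1 (1.65) or 3, without any 1 int library, without high library 2 or 3, with no filter, with no variance trend and in a fit of the 2 groups alone. In high it was 1.43 ± 0.78 (adjusted p = 0.177), but 0.61 without naive library 1 and 2.32 (adjusted p = 0.0347) without naive library 2, and without the latter the value in int was 3.36. Of the 50-base windows of the longest Csf2rb transcript, 18.4% occur in that of Csf2rb2, and reads from these shared stretches could be split between the pair. In the last 500 bases of the Csf2rb transcript 0 of 451 windows were shared. Which part of the transcript the reads cover was not tested. The ratio of Csf2rb to Csf2rb2 was 22.0, 2.11 and 5.65 in the naive libraries, 1.82, 4.71 and 5.33 in the high libraries and 4.64, 4.78 and 5.19 in the int libraries.

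Csf3r, the G-CSF receptor of neutrophils and their precursors (ENSMUSG00000028859.14; chromosome 4, 126024550 to 126044440), went against the direction of the other receptors without being called. The naive libraries held 101, 72.9 and 56.8 normalized counts, the high libraries 20.8, 43.0 and 62.3 and the int libraries 32.2, 61.9 and 47.8. Each injected group overlapped the naive group. The log2 fold change was -0.95 ± 0.52 in high (adjusted p = 0.174) and -0.70 ± 0.52 in int (adjusted p = 0.353), and without high library 1 the first was -0.52. Of 10 tested neutrophil markers, 0 were called higher and 1 lower in each comparison. Over all tested genes 14.7% were called higher and 16.6% lower in high, and 12.0% and 10.3% in int. Camp and Elane had no read in the naive group. The 12 listed summed to between 2336 and 3489 in the naive libraries, 1903 and 3919 in the high libraries and 1182 and 1759 in the int libraries.

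Flt3, a receptor kinase of early progenitors and of dendritic cells (ENSMUSG00000042817.15; chromosome 5, 147330741 to 147400489), was low in all groups. It held 11.5, 26.1 and 3.34 normalized counts in the naive libraries, 51.6, 11.9 and 17.1 in the high libraries and 7.52, 33.3 and 32.9 in the int libraries. The log2 fold changes were 1.02 ± 0.89 (adjusted p = 0.386) and 0.92 ± 0.89 (adjusted p = 0.482), with 95% intervals from -0.93 to 2.98 and from -1.04 to 2.88. Without naive library 3, which held 4 reads of it, they were 0.33 and 0.23.

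**Figure D3:**
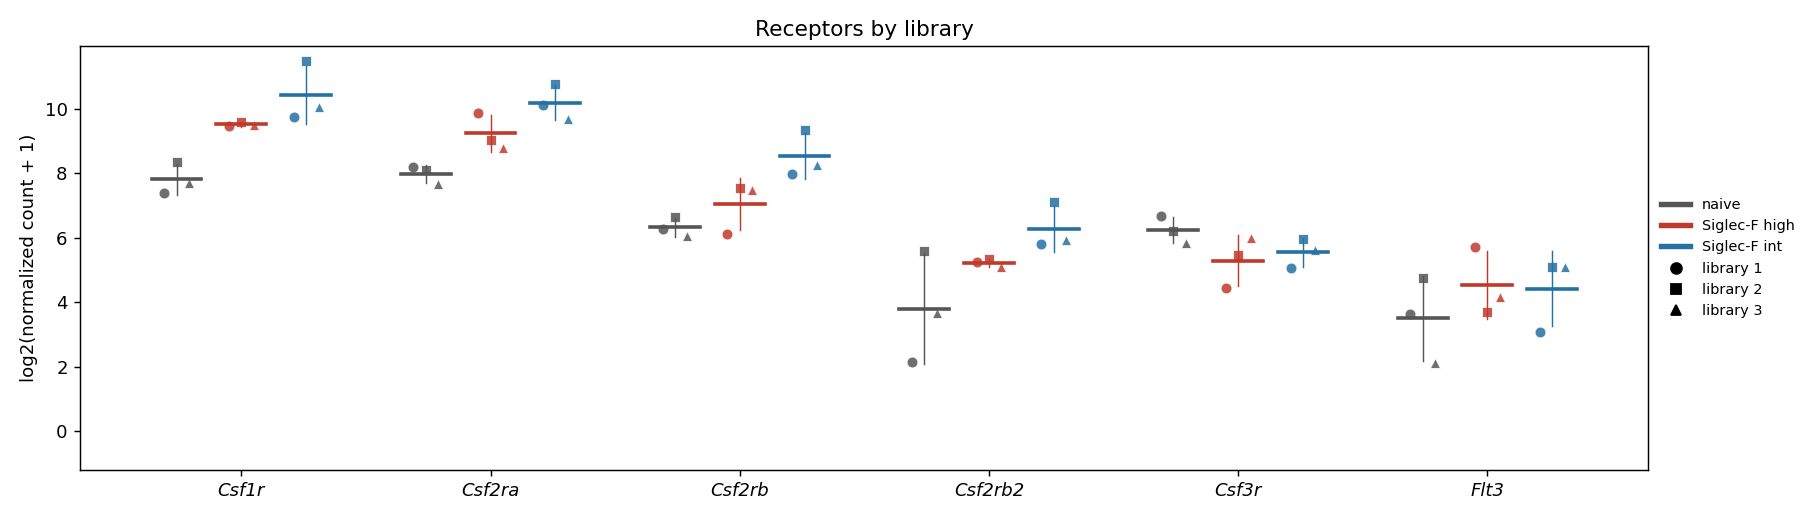
Level of the 6 receptor genes in each library on a log2(normalized count + 1) scale (vertical axis), by group, with a horizontal bar at the mean and a vertical bar for the SD of the log2 values (n = 3). Naive libraries lie under all others for Csf1r and Csf2ra, and the int libraries lie highest for Csf2rb and Csf2rb2.

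Monocyte and macrophage markers were called higher in part, 6 of 14 in high and 9 of 14 in int, with 0 lower. Over all tested genes 14.7% and 12.0% were called higher. The 14 markers summed to between 10424 and 14192 in the naive libraries, 16420.0 and 27184 in the high libraries and 22702 and 92492 in the int libraries. Every one had reads in every group. The highest sum belongs to int library 2, where Csf1r stood at 2.94 times the mean of the other int libraries, Csf2ra at 1.79, Csf2rb at 2.32 and Csf2rb2 at 2.38 times. In high library 1 the markers stood at a median of 0.723 times the other high libraries, Csf1r at 0.939 and Csf2rb at 0.375 times, while Csf2ra stood at 1.95 and Flt3 at 3.56 times. A separate list of 10 alveolar macrophage markers stood at a median of 1.29 times in that library. It summed to between 3792 and 5054 in the naive, 5781 and 8172 in the high and 3320 and 5250 in the int libraries. Of these 10, 2 were called higher and 1 lower in each comparison with naive. Over all tested genes 16.6% were called lower in high and 10.3% in int. Without int library 2 the log2 fold changes of int against naive were 2.09 for Csf1r (adjusted p = 0.00558) and 1.92 for Csf2ra (0.0128). They were 1.81 for Csf2rb (0.0386) and 2.06 for Csf2rb2 (0.151). The summed dendritic cell markers ran from 681 to 784, from 533 to 1006 and from 1011 to 1581 in the naive, high and int groups. Much of these sums was Fscn1 and Bst2, at 306 and 291 of 681 in naive library 1 and 882 and 226 of 1295 in int library 1. Of 8 tested dendritic cell markers, 0 were called higher in high and 1 in int, with 0 lower. The part of these cells in the receptor levels was not tested.

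**Figure D4:**
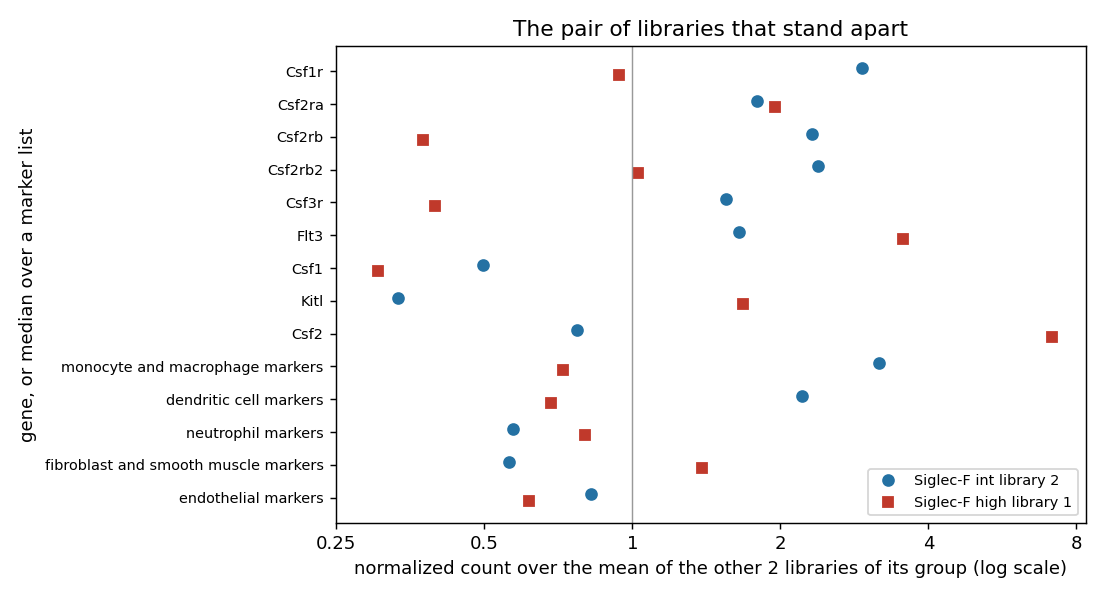
Ratio of 1 library to the mean of the other 2 libraries of its group (horizontal axis, log scale) for 9 of the genes and for the median over 5 marker lists. In Siglec-F int library 2 the receptors and the macrophage markers lie above 1 while Csf1 and Kitl lie under it, and in Siglec-F high library 1 Csf2 and Flt3 lie farthest above 1.

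The third comparison asked whether the family differs between the Siglec-F high and int cells of the same kind of lung. The high libraries all lay under the int libraries for 3 members, Csf1r, Csf2rb and Csf2rb2, as they did for 5.75% of tested genes. For 0 members they all lay above them, as they did for 5.52% of tested genes. None of these was called. The log2 difference, high minus int, was -1.49 ± 0.48 for Csf2rb (unadjusted p = 0.0105, adjusted p = 0.797), -0.91 ± 0.43 for Csf1r (adjusted p = 0.797) and -1.04 ± 0.78 for Csf2rb2 (adjusted p = 0.797). Without int library 2 they were -1.09, -0.39 and -0.63. Csf2ra was at -0.95 ± 0.38 (unadjusted p = 0.0277, adjusted p = 0.797), with overlap between the groups. Kitl was at 1.14 ± 0.70 (adjusted p = 0.797; 95% interval -0.41 to 2.68) and Csf1 at -0.29 ± 0.60 (adjusted p = 0.906; -1.62 to 1.04), so neither a difference of 2-fold nor its absence was shown. Without int library 2 Kitl was at 0.61. Csf2 was at 0.54 ± 0.90 and at -0.37 without high library 1.

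Related ligands and receptors were sparse. The interleukins Il3 and Il5, which signal through the beta chains, had 0 and 12 reads in all, and the interleukin-5 receptor chain Il5ra had 5 reads in naive, 5 in high and 23 in int libraries. None of these 3 passed the filter. Il34, the other ligand of CSF1R, was listed at 0 in every naive library and in high library 1, and at 66.2 and 37.5 in the remaining high and 32.8, 27.8 and 47.1 in the int libraries. Its pooled level as observed was 33.7-fold higher in high and 30.5-fold higher in int than the floor of the naive group. Like Csf2, it passed the filter only through the groups where it had reads, so no p is given. Kit, the receptor of stem cell factor, stood at 34.4, 10.4 and 42.6 in the naive libraries, 247, 55.5 and 55.4 in the high libraries and 56.4, 91.9 and 89.8 in the int libraries. The naive libraries thus held the least Kit, but it was not called in high (1.83 ± 0.69, adjusted p = 0.0644) or int (1.59 ± 0.69, adjusted p = 0.120). It was called in high without high library 2 (adjusted p = 0.0451) and in int without high library 1 (adjusted p = 0.0396). Flt3l, the ligand of FLT3, was at -0.81 ± 1.08 and 0.80 ± 1.08 (adjusted p = 0.579 and 0.623), and Il3ra, the alpha chain of the interleukin-3 receptor, at -2.45 ± 1.21 and -0.14 ± 1.21 (adjusted p = 0.139 and 0.945). In high Il3ra was at -1.04 (adjusted p = 0.426) without high library 1, which held 0 reads of it, and was called lower without high library 2 (-3.62, adjusted p = 0.0314) and with the replicate block (adjusted p = 0.0442).

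Genes that carry the signal of these receptors inside the cell were mostly not called. Of 25 such genes 6 were called higher and 1 lower in high, and 7 higher and 0 lower in int, with medians of 0.31 and 0.99. Over all tested genes limma called 14.7% higher and 16.6% lower in high, and 12.0% and 10.3% in int. The kinase Jak2, which the beta chain uses, was higher in both (1.58 ± 0.30, adjusted p = 0.00409, and 1.88 ± 0.30, adjusted p = 0.00218). In high the kinase Jak1 (1.59 ± 0.34) and the ubiquitin ligase Cblb (2.59 ± 0.55) were also higher and the kinase Tyk2 lower (-1.27 ± 0.43, adjusted p = 0.0466). The Jak2 call in high was lost with the GC and length trend removed (0.66, adjusted p = 0.106). The Tyk2 call was lost without any 1 library other than high library 2 (adjusted p up to 0.126) and with TMM factors, equal totals or edgeR. In int the phospholipase Plcg2 (1.56 ± 0.30) and the Src-family kinase Lyn (2.29 ± 0.51) were higher. Between high and int, Jak1 was at 0.26 ± 0.34 and Stat3 at -0.34 ± 0.32, and 0 of the 25 were called.

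Genes that respond to these cytokines gave mixed directions. Of 14 such genes 3 were higher and 2 lower in high, and 6 higher and 1 lower in int, with medians of 0.81 and 1.27. The shares over all tested genes were 14.7% higher and 16.6% lower in high, and 12.0% and 10.3% in int. Id1, a transcriptional inhibitor, was higher in both (2.58 ± 0.44, adjusted p = 0.00268, and 2.01 ± 0.44, adjusted p = 0.00999), as was the survival gene Mcl1 (0.90 ± 0.29 and 1.26 ± 0.29). Its relative Bcl2a1b was higher in high (2.24 ± 0.63) and the cytokine Osm in int (2.44 ± 0.57). Ccnd2, a cyclin, was lower in both (-1.87 ± 0.25, adjusted p = 0.000763, and -1.34 ± 0.25, adjusted p = 0.00436), and the kinase Pim2 was lower in high (-2.68 ± 0.66). In high the calls of Pim2 (adjusted p = 0.0518) and Bcl2a1b (0.0543) were lost without naive library 2, that of Bcl2a1b also without naive library 3 (0.0770), and that of Mcl1 without any 1 naive library, high library 2 or 3 or int library 3 (0.0604 to 0.0968). In int the call of Id1 was lost without int library 1 (adjusted p = 0.0510) or 3 (0.0514) and that of Osm without naive library 1 (0.0519). Without high library 1 Bcl2a1b was at 1.55 in high, and leaving out high library 2 or 3 gave -3.27 or -2.05 for Pim2. Between high and int, Socs3 was at -0.70 ± 0.37 (-0.30 without high library 1) and Mcl1 at -0.36 ± 0.29, and 0 of the 14 were called.

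Transcription factors of the myeloid lineages had no member called lower. Of 13 tested, 3 were higher in high and 4 in int, with medians of 0.43 and 1.28. Among all tested genes 14.7% were higher and 16.6% lower in high, and 12.0% and 10.3% in int. Klf4 and Runx1 were higher in both, at 2.20 ± 0.37 and 1.89 ± 0.35 in high and 2.16 ± 0.37 and 2.32 ± 0.35 in int. Between high and int 0 were called. There Spi1, which encodes PU.1, was at -2.36 ± 1.07 and Cebpb at -0.93 ± 0.55, and without high library 1 they were at -0.79 and -0.22.

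The genes whose levels ran most like each member over the 9 libraries, among 8117 or 8118 others with a mean of at least 50, are given by Pearson's r of log2(normalized count + 1). The libraries fall into groups that differ in level, so r is a description and carries no test. For Csf1 they were Col18a1 (0.98) and Col5a1 (0.98), and for Kitl they were Nrep (0.99), Sertad4 (0.99) and Slc20a1 (0.99). For Csf1r they were Otulinl (0.99), Mpeg1 (0.99) and Coro2a (0.99), and for Csf2ra they were Bin2 (0.98), Clec12a (0.97) and Fgl2 (0.96). For Csf2rb they were Nuak2 (0.98), Atp6ap2 (0.96) and Fcgr1 (0.96), and for Csf2rb2 they were Irf8 (0.98), Kdm7a (0.96) and Cd86 (0.96). For Csf3r they were Dxo (0.96), Ckap4 (0.94) and Nme4 (0.94). The members with the fewest reads had Syncrip (0.99), Nptn (0.99) and Eif5b (0.99) for Csf2, Mkln1 (0.91), Prpf3 (0.89) and Efcab14 (0.88) for Csf3 and Hnrnpd (0.89), Golm1 (0.88) and Atg12 (0.87) for Flt3.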

How the data were processed

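Per the labels' protocols, cells sorted from lungs at over 98% purity were pooled, RNA with an integrity number above 6.3 was used, and libraries were made by a protocol the labels call Cell-seq. The submitters' processing notes name TopHat2 2.1.0, HTSeq, DESeq2 1.10.0 and GRCm38. The deposited values, a normalized signal per gene, are taken as reads scaled by a size factor for each library. With the smallest step of a library as the worth of 1 read, 100% of values of at most 2000 reads came out whole (tolerance 0.05 read). These recovered reads give the depth. Of 54670 entries, 63 with a damaged name (0.219% of the total), 116 exact duplicates and 42 with another entry's name and values were left out.

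The 3 groups were compared with limma 3.58.1 under R 4.3.3, with a variance trend, in a single model of the 9 libraries on log2(value + 1), for 13642 genes with a mean of at least 5. Tests were two-sided with Benjamini-Hochberg adjustment over all tested genes and a threshold of 0.05. This scale understates changes of low genes. With the recovered reads, edgeR 4.0.16 and DESeq2 1.42.0 called 3550 and 4964 genes for high against naive and 2875 and 4018 for int against naive. The procedure was tested on simulated data. No pair of libraries in a group was a repeat (chi-square per degree of freedom 16.6 to 148). Positions come from GENCODE M21, whose identifiers matched 99.9% of genes, and promoters from RefSeq, where windows of 7 of the 10 genes were searched. Csf3 and Csf2rb had no window, and Csf1r was left out of the search. The RefSeq start of Csf2 lies 232 bases upstream of the GENCODE start, and its window is not shown. Figures were drawn with matplotlib 3.10.9.

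The members and gene lists were chosen with earlier results of these data known. The naming rule took all members, 7 related ligands and receptors, up to 3 called genes per direction of each pathway list with the smallest adjusted p, otherwise the 2 with the highest mean, and the 3 genes most like each member. Some genes that this rule names are not reported here. Alternatives were other pseudocounts, filters, scalings and variance priors, a fit of the 2 groups alone, a replicate block, count models, the removal of each library, and, chosen after seeing the data, removal of a GC and length trend (span 0.3).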

Additional observations from a re-analysis of the deposited data

How the results depend on the processing

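Csf1, Kitl and Csf1r against naive kept direction and call under every alternative run, except Csf1r in high without naive library 1. Csf2ra and Csf2rb did so in int. Under the replicate block no member changed its call, and limma called 4317, 3091 and 0 genes in the 3 comparisons. Library numbers showed little link to the naive group: same-numbered libraries correlated by -0.03 to 0.01 between naive and high and by -0.02 to 0.06 between naive and int. Between high and int they correlated by 0.07 to 0.14, and 6 of 6 correlated best with their own number. The main fit holds no pairing, and whether same-numbered high and int libraries share mice was not tested.

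In a fit of the 2 groups alone, limma called 2509 genes for high and 4808 for int against naive. Without high library 1 and int library 2 together it called 4623 for int. DESeq2 called 6 between high and int. Leaving out 1 library gave 2770 (without naive library 1) to 5101 for high, 1401 (without int library 3) to 5167 (without high library 1) for int, with 1497 without int library 1 and 1939 without naive library 1, and 0 between high and int. Equal totals gave 2141 higher and 1613 lower genes for high against naive and 2007 and 897 for int, TMM factors 2279 and 1841, and 1928 and 1100, and edgeR 2172 and 1378, and 1837 and 1038.

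Among the members, under settings other than leaving out 1 library, calls were lost by Csf2ra in high (1.25 with no filter, in the fit of 2 groups and with no variance trend), Csf2 in int, which had to differ from naive (1.49 with a pseudocount of 5, 3.33 with no filter, 2.62 with quantile normalization) and Csf2rb2 in int (2.47 with no filter, in the fit of 2 groups and with no variance trend, 2.06 without high library 1 and int library 2). Csf2rb in high gained a call without those libraries (1.19). With 1 library left out, values in high ran from 1.49 to 1.96 for Csf1r, 0.93 to 1.47 for Csf2ra, 0.47 to 1.19 for Csf2rb, 0.61 to 2.32 for Csf2rb2 and -1.51 to 0.11 for Csf3, and in int from 3.25 to 3.44 for Csf2, 1.65 to 3.36 for Csf2rb2 and -0.21 to 0.86 for Csf3. Between high and int they ran from -0.62 to 0.28 for Csf1, -0.37 to 1.20 for Csf2, -0.59 to 0.17 for Csf3r and -0.56 to 0.52 for Flt3. Other signs that turned, all uncalled, were those of Csf3 in high (0.11 without both libraries, 0.55 with the GC and length trend removed) and in int (-0.12 with quantile normalization). Between high and int they were Csf2 (-0.49), Csf3r (0.39), Flt3 (-0.15), Il34 (0.34), Kit (-0.35), Stat3 (0.07) and Cebpb (0.06) without both libraries, Flt3 at -0.02 with equal totals and Csf3r at 0.05 with the trend removed. With 1 library left out, Il34 ran from -2.54 to 0.50, Kit from -0.48 to 0.59 and Stat3 from -0.58 to 0.01. Flt3l in high turned to 0.15 with edgeR, 0.07 with DESeq2, 0.69 without both libraries, and from -1.75 to 0.69 with 1 library left out. Il3ra in int turned to 0.03 with TMM factors, 0.12 with equal totals, 0.56 with the trend removed, and from -0.72 to 0.71 with 1 library left out. The cause was not tested for any of these. With a mean of at least 20, Csf2 and Csf3 were not tested. Read numbers limit Csf2, Csf3, Flt3, and the naive levels of Kitl and Csf2rb2.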
